A study of Mus musculus with 33 samples.

Results

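The inner root sheath keratins Krt25, Krt26, Krt27, Krt28, Krt71, Krt72 and Krt73 were followed through the hair cycle of mouse dorsal skin. These 7 genes were chosen by name, from 18193 gene symbols on the array, 48 of which are keratin genes named Krt with a number. Each of the 7 was measured by 1 probe set whose annotation holds that single symbol, and all 7 passed the filter on low signals. RNA of whole upper-mid dorsal skin from 33 wild-type C57BL/6 mice had been hybridized to 1 Affymetrix array per mouse. In the natural second cycle, 23 mice of both sexes were taken at postnatal day (P) 23 and P25 (early anagen, 2 mice each), P27 (mid anagen, 3), P29 (late anagen, 3), P34 (late anagen, 1), P37 and P39 (early catagen, 3 each), P41 (mid catagen, 3) and P44 (telogen, 3). In the induced cycle, 10 female mice of at least P50 whose resting follicles had been waxed were taken in pairs 3 days after depilation (D3) as early anagen, at D5 as mid anagen, at D8 or D12 as late anagen, and finally at D17 as early catagen. No unwaxed mouse of that age is among the samples, so age and depilation cannot be told apart between the cycles. Sex is only partly separate from them, since the depilated mice were all female, the natural mice were of both sexes, and both P23 mice were male. P44 is the telogen at the end of this natural cycle, and it serves as telogen in every comparison, that with early anagen included.

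The inner root sheath is the sleeve of hardening cells that surrounds the growing hair shaft, guides it upward and is shed before the hair leaves the skin. It is built only while a follicle is in anagen, from matrix cells that divide around the dermal papilla, and it consists of the Henle layer, the Huxley layer and a cuticle that interlocks with the cuticle of the hair. Its filaments are obligate pairs of a type I keratin (Krt25, Krt26, Krt27, Krt28) and a type II keratin (Krt71, Krt72, Krt73). Krt25, Krt27, Krt28 and Krt71 are known from all of its layers, while Krt26, Krt72 and Krt73 are known from its cuticle, and mutations of Krt71 or Krt25 give mice with wavy or curly coats.

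The median signal of an array lay between 111 and 142 and replicates of a day correlated at r = 0.943 to 0.980 over the kept probe sets, lowest for the pair of D5 mice. The brightest probe set of an array read between 29203 and 54974. Between 0 and 4 probe sets were brighter than Krt25 on the P39 arrays, and between 3 and 18 were brighter than Krt71, so both genes sat at the top of the scale at their peak and a ceiling there would flatten their differences. At the other end, signals under 34.6 were set to that floor for the tests, which concerns Krt25 on 1 array and Krt26 on both arrays of D3. In whole skin, fewer sheath cells and less RNA per cell cannot be told apart.

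The type I genes lie in 1 cluster on chromosome 11 in the order Krt25, Krt26, Krt27, Krt28 and the type II genes in 1 cluster on chromosome 15 in the order Krt71, Krt72, Krt73, all on the minus strand in RefSeq (GRCm38.p6). The lncRNA gene Gm32502 lies between Krt25 and Krt26 and the transcribed pseudogene Krt74 between Krt71 and Krt72, and neither has a probe set here. The promoters of the latest pair to appear are shown first, as the 150 bases before the annotated start, with TATAAA in capitals.
Krt26 (chr11:99337966-99338115, minus strand): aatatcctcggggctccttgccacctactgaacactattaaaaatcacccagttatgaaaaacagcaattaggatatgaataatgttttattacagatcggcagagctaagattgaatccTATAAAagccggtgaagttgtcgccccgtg
Krt72 (chr15:101786521-101786670, minus strand): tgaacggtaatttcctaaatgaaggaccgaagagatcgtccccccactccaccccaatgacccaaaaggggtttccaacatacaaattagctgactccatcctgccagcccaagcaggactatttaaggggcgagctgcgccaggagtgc
The promoters of 3 genes that were already high in early anagen follow, with TATAAA in capitals and with the homeodomain core spelled TAATTA in Krt25 and Krt28 marked likewise. The remaining capitals in Krt25 are the reverse complement of CTTTGT, the core bound by LEF1 and TCF factors.
Krt25 (chr11:99322952-99323101, minus strand): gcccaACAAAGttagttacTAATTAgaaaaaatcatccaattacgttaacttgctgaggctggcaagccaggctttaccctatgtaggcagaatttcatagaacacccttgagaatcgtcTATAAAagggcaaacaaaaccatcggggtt
Krt28 (chr11:99374904-99375053, minus strand): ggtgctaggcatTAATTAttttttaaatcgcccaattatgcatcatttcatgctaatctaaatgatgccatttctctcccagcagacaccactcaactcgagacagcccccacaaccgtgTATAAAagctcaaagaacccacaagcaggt
Krt73 (chr15:101802361-101802510, minus strand): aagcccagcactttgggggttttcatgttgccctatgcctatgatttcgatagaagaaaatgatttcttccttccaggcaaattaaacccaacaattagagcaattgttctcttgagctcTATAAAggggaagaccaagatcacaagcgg
TATAAA, the core of a TATA box, was found on either strand of this window in 6 of the 7 genes, all but Krt72, and in 7.57% of 32851 RefSeq promoters cut to the same length. In Krt25, Krt26, Krt28 and Krt73 its first base lies 30 bases before the start. TAATTA was found in 2 of the 7 genes and in 2.73% of promoters. CTTTGT was found in 1 of 7 genes against 9.88% of promoters, and GATAA, a core of GATA factor sites, in 1 of 7 genes, Krt27, against 13.3%. None of the 4 motifs overlaps another in these windows.

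Krt25, a type I keratin of all sheath layers, was already bright at the first day sampled. Its signal was 9669 and 15859 in the P23 mice, 8813 and 21804 in the P25 mice, 30267, 30820 and 25098 in the P27 mice, and 39993, 37040 and 39059 in the P29 mice. It stayed between 35023 and 44678 from P34 to P39, fell to 25999, 25115 and 28926 at P41 and was at 1217, 912 and 217 at P44. The P23 and P25 mice overlap each other, whereas every P27 mouse lies above them and every P44 mouse lies far below all other natural days. The lower P25 mouse was female, and the other P25 mouse and both P23 mice were male. After depilation Krt25 read 34.9 and 33.6 at D3, at the floor, and 17824 and 21437 at D5.

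Krt26, a type I keratin of the sheath cuticle, took another course. It read 78.7 and 387 at P23, 657 and 1669 at P25, 12118, 12250 and 5051 at P27, and 18667, 17671 and 20643 at P29. At P44 it was at 220, 214 and 63.2, so that 1 P23 mouse lies within the telogen range and the other lies above it, as do the P25 mice. Krt72, a type II keratin of the cuticle, read 113 and 460 at P23 and 681 and 1435 at P25. It read 8813, 8364 and 3059 at P27, and 13190, 16746 and 18071 at P29. Krt73, also a type II keratin of the cuticle, did not share this course and read 3614 and 7001 at P23. The third P27 mouse, the female of that day, was the lowest of the 3 for all 7 genes.

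**Figure D1:**
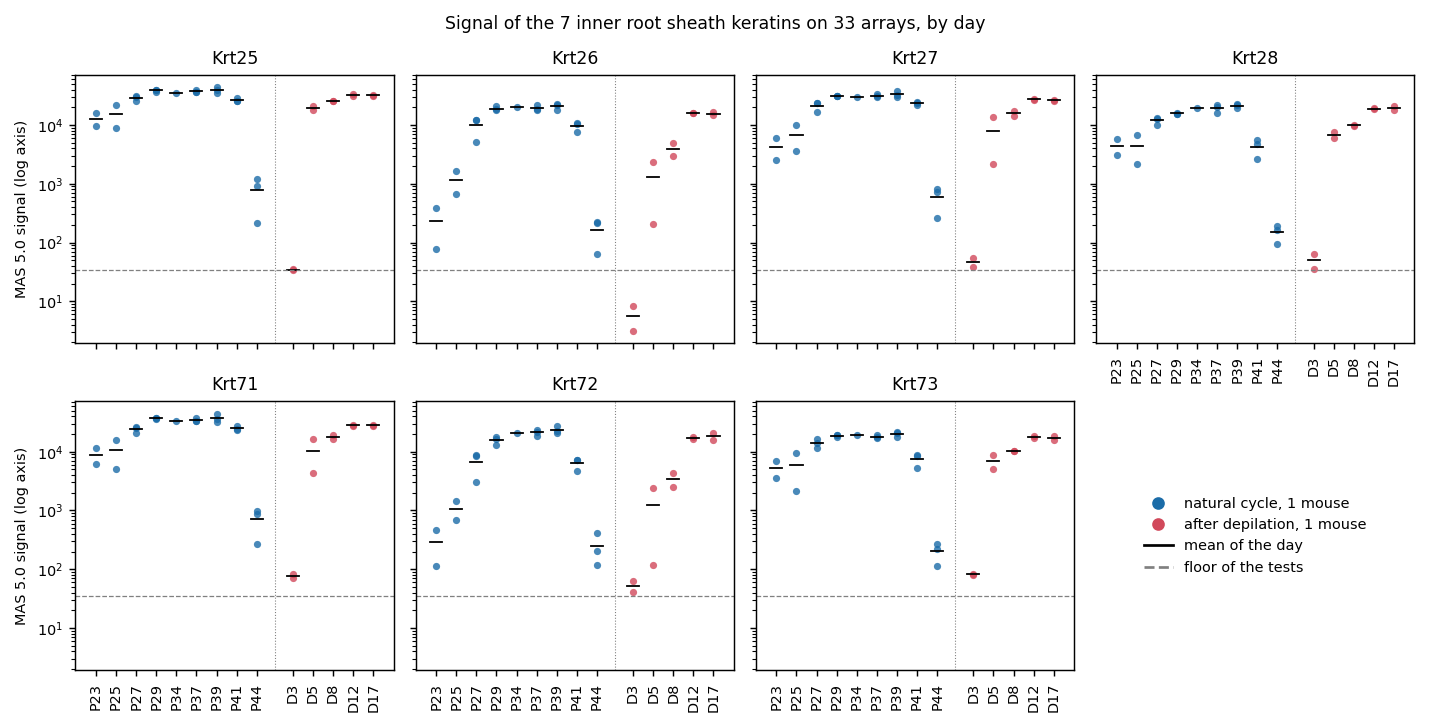
MAS 5.0 signal of each gene on a log axis against the day, 1 dot per mouse (blue natural cycle, red after depilation) with the mean of the day as a bar and the floor of 34.6 as a dashed line. Krt26 and Krt72 climb from at most 460 at P23 to at least 13190 at P29, while the other 5 genes are at 2555 or above at P23, and all 7 are at 1217 or below at P44 and at 83.1 or below at D3.

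As a share of its own highest day mean, which was P39 for all 7 genes in the natural cycle, Krt25 stood at 31.9% at P23, Krt73 at 26.3%, Krt71 at 23.4%, Krt28 at 21.0%, Krt27 at 12.6%, Krt72 at 1.23% and Krt26 at 1.12%. At P27 the same shares were 71.7%, 69.3%, 64.2%, 56.8%, 63.5%, 28.9% and 47.1%. The first day at or above 50% of the peak was therefore P27 for 5 genes and P29 for Krt26 and Krt72. After depilation it was D5 for Krt25 alone, D8 for Krt27, Krt28, Krt71 and Krt73, and D12 for Krt26 and Krt72. By this measure Krt26 and Krt72 were last in both cycles. For Krt26 in the natural cycle this rests on the third P27 mouse, at 5051. The other P27 mice read 12118 and 12250, above 50% of the peak mean of 20804. At 25% of the peak Krt26 and Krt72 shared P27 with Krt27 and Krt28 in the natural cycle, and were again last, at D12, after depilation. For Krt26 the latter is narrow, since its D8 mean was 24.8% of the peak, while that of Krt72 was 18.8%.

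**Figure D2:**
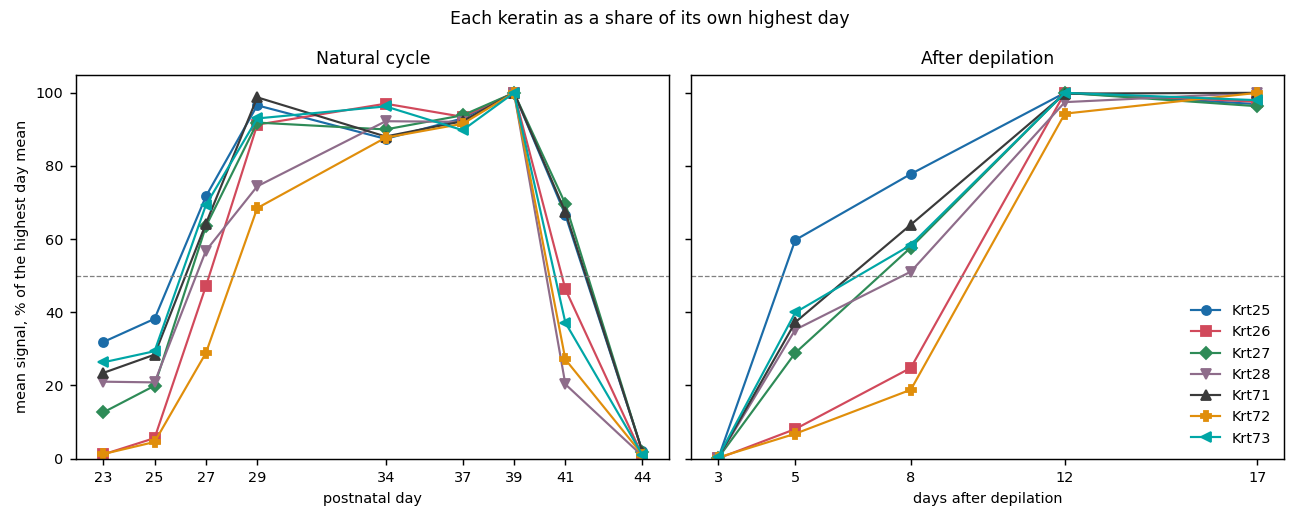
Mean signal of each gene as a percent of its own highest day mean against postnatal day (left) and days after depilation (right), with a dashed line at 50%. Krt26 and Krt72 stand at 1.12% and 1.23% at P23 and at 24.8% and 18.8% at D8, where the other 5 genes are between 51.1% and 77.8%.

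The entry into growth was examined by comparing early anagen (P23 and P25) with telogen (P44). Among the 7 genes 5 rose, beside 13.5% of the 26988 probe sets tested that rose (limma, adjusted p under 0.05). Krt28 rose 28.0-fold, a log2 difference of 4.81 ± 0.44 (SE, limma adjusted p = 0.000732). Krt73 rose 25.3-fold, Krt25 21.1-fold, Krt71 14.3-fold and Krt27 9.04-fold. Krt26, at 3.0-fold with a log2 difference of 1.57 ± 0.99, and Krt72, at 2.2-fold with 1.13 ± 0.84, overlapped the telogen mice and did not pass (limma adjusted p = 0.276 and 0.348). Between P25 and P23 none of the 7 passed (limma, 0.0148% of probe sets higher), but 2 had an unadjusted p under 0.05 and groups that did not overlap (13.6% of probe sets were apart in this direction), namely Krt26 with a log2 difference of 2.58 ± 0.79 and Krt72 with 2.12 ± 0.86. The t-test of the methods, here an ordinary t-test on the floored log2 signal, found 0 of 7 there at either level. The authors ran a one-way ANOVA between phases, on values transformed in another way and at another threshold. Results of this t-test are therefore not those of the authors.

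Among genes of the same sheath, from a list of 19 partners and regulators of which 17 were tested, 5 rose and 2 fell in early anagen. Padi3, an enzyme that converts arginine to citrulline in sheath proteins, rose by 3.24 ± 0.61 on the log2 scale, and Tchh, the trichohyalin that such enzymes modify, by 2.42 ± 0.60. Msx2 and Dlx3, homeodomain factors of the hair matrix, rose by 2.95 ± 0.26 and 2.31 ± 0.33. Cdsn and Tgm3, which also serve the cornified epidermis, fell by 1.37 and 0.70. The list of dividing cells rose with them, 6 of 6, its summed signal going from 1683 to 2255 at P44 up to 17334 to 22652 at P23 and P25. In the same comparison the summed signal of 8 leukocyte markers, 5 lower and 1 higher, went from 55946 to 78515 down to 24232 to 40395, and 4 of 8 skeletal muscle markers and 8 of 9 epidermal markers were lower. The part of these shifts in the keratin differences was not tested.

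Mid anagen (P27) was set against early anagen. All 7 keratins were higher in each P27 mouse than in any P23 or P25 mouse, as were 17.5% of probe sets, and 6 passed, beside 10.4% of probe sets that rose. Krt26 rose 21.2-fold, a log2 difference of 4.41 ± 0.94 (limma adjusted p = 0.0196), and Krt72 rose 12.8-fold, by 3.68 ± 0.82. The others that passed rose 4.39-fold (Krt27), 2.99-fold (Krt28), 2.74-fold (Krt71) and 2.18-fold (Krt25). Krt73, at 2.88-fold and 1.53 ± 0.48, did not pass (limma adjusted p = 0.0628). These calls rest on few mice, since 0 of 7 passed without the first or without the second P27 mouse, 3 without the first P23 mouse, 4 without the second P23, the first P25 or the third P27 mouse and 7 without the second P25 mouse. The calls of Krt25 and Krt71 were each lost in 6 of these 7 omissions. With the t-test of the methods 0 of 7 passed, with all differences above 0.

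Of the 17 partners 12 rose into mid anagen and none fell. Tchhl1, a trichohyalin-like protein, rose by 4.67 ± 1.19 and Crym, a thyroid hormone-binding crystallin, by 3.90 ± 0.59 on the log2 scale, while Padi3 rose again by 3.23 ± 0.55. Tgm3, a transglutaminase that crosslinks sheath proteins, rose by 2.17 ± 0.55, and Foxn1, a factor required for hair keratin expression, by 1.87 ± 0.47. Gata3, a factor needed for the sheath lineage that the epidermis also expresses, had a difference of 0.01 ± 0.14. Hair shaft keratins rose in 11 of 12 tested, with a median of 4.52 beside -0.01 over all probe sets. Leukocyte and dermal fibroblast markers were lower in 5 of 8 each, with summed signals of 10841 to 18505 and 111830 to 131614 at P27 against 24232 to 40395 and 148863 to 190356 before, and their part was not tested.

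**Figure D3:**
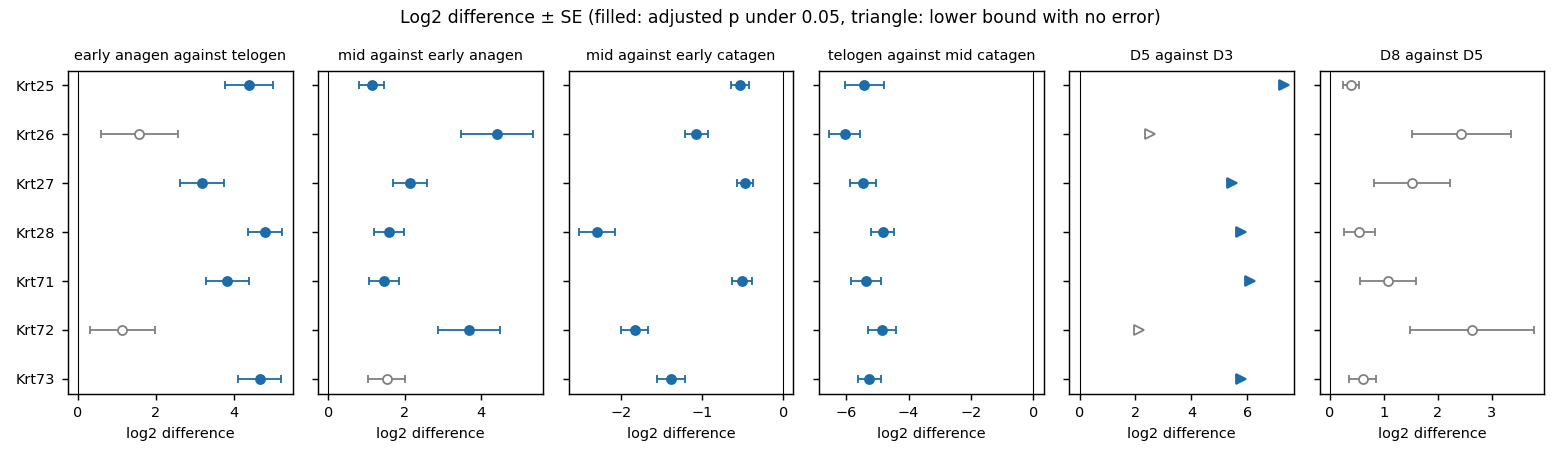
Log2 difference ± SE of each gene in 6 steps, each panel with its own horizontal scale, filled where the limma adjusted p is under 0.05, with triangles for lower bounds in the step from D3. The fill of a triangle is from the test with the floor of 34.6, not from the bound. In early anagen Krt26 and Krt72 are the open symbols, in mid anagen they have the largest rises of the 7 at 4.41 and 3.68, and at mid catagen Krt28 and Krt72 have the largest falls.

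Whether the genes kept step was tested within arrays, by the log2 difference of each gene to Krt25 on the same array, which does not depend on the scaling of the array. That difference rose from early anagen (4 mice) to mid and late anagen at P27 and P29 (6 mice) by 3.60 for Krt26 and by 3.03 for Krt72, in a two-sided exact permutation test with p = 0.00952381, the smallest the design allows. It rose by 1.07 for Krt27, 0.43 for Krt28, 0.42 for Krt71 and 0.40 for Krt73, with the same exact p and the same value after adjustment over the 6 tests. The 2 sets of mice did not overlap for any of the 6 genes. The mean difference of Krt26 to Krt25 was -6.15 at P23, -3.73 at P25, -1.65 at P27 and -1.03 at P29, and that of Krt72 was -5.76, -3.81, -2.23 and -1.29. Against Krt71 in place of Krt25, the change was 0.01 for Krt28 and -0.02 for Krt73 (exact permutation, adjusted p = 0.933 for both), so the smaller steps of these 2 depend on which gene is the reference. Between 1 and 12 probe sets were brighter than Krt25 on the P29 arrays, and the part of a ceiling was not tested.

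**Figure D4:**
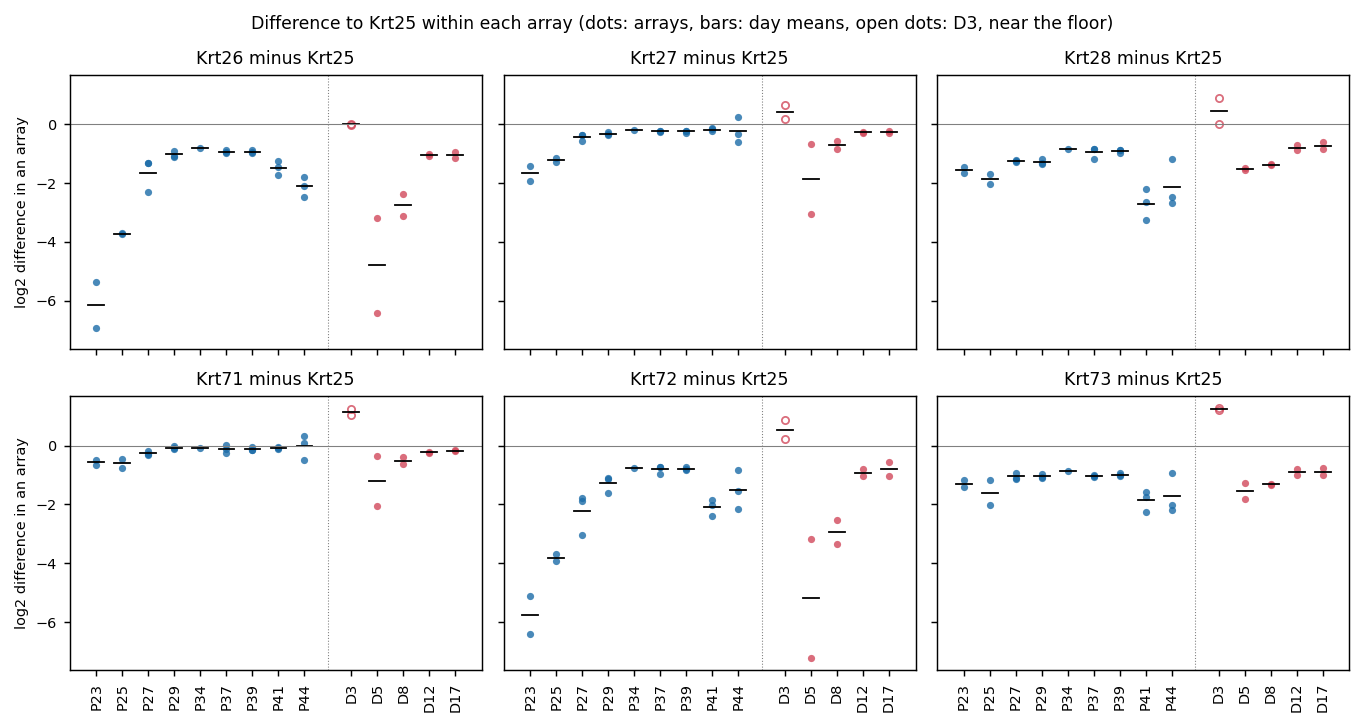
Log2 difference of each gene to Krt25 within an array against the day, 1 dot per mouse (blue natural cycle, red after depilation, open at D3 where Krt25 is at the floor) with day means as bars. Krt26 and Krt72 climb from -6.15 and -5.76 at P23 to -1.03 and -1.29 at P29, and Krt28, Krt72 and Krt73 drop at P41 while Krt27 and Krt71 do not.

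From P27 to P39 the 7 genes approached and then held a plateau. Late anagen (P29) lay above mid anagen for every gene with no overlap of mice, a pattern that 13.0% of probe sets share, by 0.40 ± 0.14 (Krt28) to 1.38 ± 0.41 (Krt72) on the log2 scale. None passed (limma adjusted p from 0.159 to 0.213, with 0% of all probe sets passing). Before adjustment 7 were under 0.05 in limma and 5 in the t-test of the methods, which found 0 after it. The share of all probe sets under 0.05 before adjustment was not taken, here or in any other step, so such counts cannot be set against it. From late anagen to early catagen (P37 and P39) differences ran from -0.05 ± 0.11 (Krt71) to 0.49 ± 0.14 (Krt72), again with 0 of 7 passing (limma, 0% of probe sets). Before adjustment 2 genes were under 0.05 by each test, and of the 7 only Krt72 lay wholly above P29, as 3.34% of probe sets did, at 18458 to 26914 against 13190 to 18071 at P29. P39 and P37 differed by 0.15 or less for every gene (limma, 0 of 7 passing, beside 0% of probe sets higher and 0.0111% lower, and 0 of 7 at an unadjusted p under 0.05 by either test).

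Regression began unevenly. At P41 all 7 genes fell against early catagen, beside 17.9% of probe sets that fell, and no P41 mouse reached any P37 or P39 mouse, which holds for 17.4% of probe sets. Krt28 read 5622, 2607 and 4665 at P41 after a lowest value of 16029 in early catagen, and it fell 4.94-fold, a log2 difference of -2.30 ± 0.22 (limma adjusted p = 0.000213). Krt72 fell 3.57-fold to 7135, 4724 and 7131. Krt73 read 8724, 5204 and 8564 at P41, a 2.61-fold fall, and Krt26 fell 2.11-fold to 10884, 7526 and 10488. Krt25, Krt71 and Krt27 fell by less, 1.45-fold, 1.42-fold and 1.39-fold, and at P41 still held 66.6%, 67.4% and 69.6% of their peak. Krt28, by contrast, held 20.3%, Krt72 27.1%, Krt73 37.2% and Krt26 46.3%.

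Set against Krt25 within the array, the fall at P41 was larger for Krt28 by a log2 difference of -1.77, for Krt72 by -1.30, for Krt73 by -0.85 and for Krt26 by -0.54. Each had a two-sided exact permutation p = 0.0238095, the smallest for 3 against 6 mice, and an adjusted p = 0.0357143 over 6 tests. For Krt27 the change was 0.06 (exact permutation adjusted p = 0.143) and for Krt71 0.02 (adjusted p = 0.714). The order of loss is not the reverse of the order of onset, since Krt28 was among the 5 genes already high in early anagen. The 3 genes that fell least are also the 3 brightest, with 20 to 61 (Krt25), 34 to 79 (Krt71) and 50 to 113 (Krt27) probe sets brighter at P41, and the part of a ceiling in their smaller fall was not tested. In 1 fit of all 33 arrays, which pools the spread of all days, 3 of 7 passed at this step.

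Of the partners 12 of 17 fell at P41 and none rose. Tgm3 fell by 3.20 on the log2 scale and Msx2 by 1.94, while Dlx3, Foxn1, Crym and Padi3 fell by 1.62, 1.70, 1.74 and 1.54. Tchh, with a difference of 0.03 ± 0.14, did not pass, nor did Tchhl1 at -0.30 ± 0.12. The 6 dividing cell markers all fell, to a summed signal of 1844 to 3748. In the same step 7 of 8 skeletal muscle markers, 7 of 8 leukocyte markers and 4 of 6 adipocyte markers rose, with medians of 1.21, 1.18 and 0.92, and summed signals at P41 of 108183 to 120773, 31690 to 40701 and 44315 to 47736. Their part in the keratin differences was not tested.

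The loss was completed between P41 and P44. All 7 genes fell, beside 3.88% of probe sets that fell, by 28.6-fold for Krt28, 28.8-fold for Krt72, 38.4-fold for Krt73, 41.1-fold for Krt71, 42.8-fold for Krt25, 44.1-fold for Krt27 and 66.2-fold for Krt26. Krt27 read 805, 729 and 258 at P44 after 23851, 22229 and 24435 at P41. Krt71 read 871, 971 and 269 after 24041, 23753 and 27640. The third P44 mouse was the lowest of its day for all 7 genes, and without it or any other single mouse all 7 still passed, while 6 of 7 passed with the t-test of the methods. In the same step Tchhl1 fell by 7.27 and Padi3 fell by 6.05 on the log2 scale, and of the partners 10 fell and 1, Tgm5, rose by 0.95. Of the marker lists 3 of 8 skeletal muscle, 2 of 8 leukocyte and 1 of 8 dermal fibroblast markers were higher, and their part was not tested.

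Over the whole of regression, telogen against late anagen (P29), all 7 genes fell beside 21.6% of probe sets, between 58.2-fold (Krt27) and 132-fold (Krt26). Krt28 fell 110-fold, by -6.78 ± 0.26 (limma adjusted p = 3.64e-05), and Krt73 98.7-fold. At P44 the genes were left at 0.70% (Krt28) to 1.95% (Krt25) of their peak, above the floor in every mouse. Hair shaft keratins fell in 12 of 12, with a median of -6.78, and 15 of 17 partners fell. In the other direction 8 of 8 skeletal muscle markers, 7 of 8 leukocyte markers, 5 of 8 dermal fibroblast markers and 7 of 9 epidermal markers rose, with medians of 1.91, 2.55, 1.04 and 1.37. Their part in the keratin differences was not tested.

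No tested neighbour of the 2 gene clusters fell as far as the members. Of 9 such genes, Krt24 and Krt10 beside the type I cluster rose from late anagen to telogen by 1.39 ± 0.19 and 1.37 ± 0.13 on the log2 scale, as did Krt1, Krt77 and Krt5 beside the type II cluster, by 2.59 ± 0.19, 1.04 ± 0.15 and 0.48 ± 0.13. Krt10 and Krt1 are the keratins of differentiating epidermis. Krt6a of the companion layer and the chromatin gene Smarce1 fell by 0.62 and 0.67, and Krt20 and Krt6b did not pass. Across 33 arrays the highest correlations between the 7 genes were r = 0.994 for Krt27 and Krt71, 0.993 for Krt28 and Krt73 and 0.991 for Krt26 and Krt72, each a type I with a type II gene on another chromosome, and the lowest was 0.814 for Krt25 and Krt72. These are correlations over mice that share days and phases, and they are given as a description.

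The genes outside the family most like the mean course of the 7, by correlation over 33 arrays, were Padi3 (r = 0.989), S100a3 (0.987), Hoxc13 (0.981), Prr9 (0.978) and Tchh (0.976). S100a3 is a calcium-binding protein of the hair cuticle, Hoxc13 a homeodomain factor of hair keratin genes and Tchh a structural protein of the inner root sheath and medulla. Within the natural cycle the same 5 correlations over 23 arrays were 0.993, 0.984, 0.974, 0.958 and 0.977, and over the 10 arrays after depilation they were between 0.988 and 0.998.

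After depilation the genes started from a lower level. At D3, labelled early anagen in the description of the series, Krt28 read 65.0 and 34.8, Krt27 55.3 and 39.0, Krt71 81.8 and 71.0, Krt72 63.1 and 40.6 and Krt73 80.3 and 83.1, while Krt26 read 8.2 and 3.1. All of these lie below the median of their array, 131 and 118, and no detection calls were used, so a fold over D3 is given as a bound, with each D3 signal set to that median. All 7 were lower than at P23 and P25, beside 26.1% of probe sets that were lower, by at least 106-fold for Krt25, 70.2-fold for Krt71, 38.8-fold for Krt27, 38.7-fold for Krt73, 32.3-fold for Krt28, 3.83-fold for Krt72 and 3.45-fold for Krt26. With the t-test of the methods 5 of 7 passed. All 7 also passed below telogen at P44, beside 19.7% of probe sets, but 3 (Krt25, Krt27, Krt71) with the median of each array as the floor and 0 with the t-test. Those 3 were lower by at least 5.02-fold, 4.30-fold and 4.92-fold, and the bounds of the other 4 ran from 1.15-fold (Krt28) to 1.74-fold (Krt72). With single mice left out of the comparison to P44, 4 of 7 passed without the first P44 mouse, without the second P44 mouse or without the first D3 mouse, 3 without the second D3 mouse, and 7 without the third P44 mouse. Dividing cell markers at D3 were high, at 10465 to 13529 in sum against 1683 to 2255 at P44, with 6 of 6 higher, while 7 of 8 leukocyte and 6 of 8 dermal fibroblast markers were lower. Against P23 and P25, with 17334 to 22652, 3 of 6 dividing cell markers were lower at D3. So were 7 of 8 dermal fibroblast and 2 of 8 leukocyte markers, while 5 of 8 skeletal muscle markers were higher, at 171894 to 238050 in sum against 92635 to 119424. The part of these shifts was not tested.

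From D3 to D5 the genes rose, 5 of 7 passing beside 1.95% of probe sets. With the same bound at D3, Krt25 rose at least 158-fold, Krt71 68.2-fold, Krt28 54.5-fold, Krt73 54.2-fold and Krt27 43.8-fold. The tests used the floor of 34.6 instead, and their p-values do not belong to the bounds. In that fit the log2 difference of Krt25 was 9.14 ± 0.15 (limma adjusted p = 3.91e-07), with both D3 mice at or next to the floor. There Krt26, with 210 and 2361 at D5, and Krt72, with 120 and 2378, did not pass (limma adjusted p = 0.0552 and 0.161). Their log2 differences were 4.35 ± 0.93 and 3.40 ± 1.15, and their bounds are 5.68-fold and 4.31-fold. With the median of each array as the floor the same 5 passed. The second D5 mouse was the higher of the pair for all 7 genes. Krt27 read 2172 and 13560 and Krt71 4315 and 16593 in these mice, while Krt25 read 17824 and 21437. Leaving out a D5 mouse leaves 1 on that day, with no spread of its own, so only differences are given. Without the second D5 mouse those of Krt26 and Krt72 were 2.60 and 1.25 on the log2 scale, and without the first 6.09 and 5.55. With the t-test of the methods 0 of 7 passed (5 of 7 before adjustment).

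Of 17 partners 4 rose from D3 to D5. Tchh went from 58.7 and 79.5 at D3, below the array median, to between 3585 and 12014 at D5, and Padi3 from 32.9 and 33.3, below the floor, to between 1129 and 3852. Dlx3 and Msx2 rose by 3.65 ± 0.28 and 3.15 ± 0.23 on the log2 scale. These are 4 of the 5 partners that rose at the start of the natural cycle. The dividing cell markers, already high at D3, had a median difference of 0.42 with 0 of 6 passing.

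The later steps after depilation moved the same way without passing. From D5 to D8 all 7 differences were above 0, up to 2.64 ± 1.15 for Krt72, with 0 of 7 passing (limma, 0.0704% of probe sets higher), 3 under 0.05 before adjustment, and 0 in the t-test of the methods. Calls without a D5 mouse are not given, since 1 mouse is then left on that day. Krt72 then went from 4408 and 2521 at D8 to 16588 and 18141 at D12, and Krt26 from 4962 and 2939 to 16011 and 15860. Every D12 mouse lay above every D8 mouse for all 7 genes, as for 25.5% of probe sets, and 0 of 7 passed (limma, 0.133% of probe sets higher), while before adjustment 3 were under 0.05 in limma and 7 in the t-test of the methods. D17 and D12 differed by 0.07 or less on the log2 scale (limma, 0 of 7 passing, 0 of 7 at an unadjusted p under 0.05 by either test, 0% of probe sets), so no loss was seen by the last day of this cycle. The F test over the 5 days passed for all 7, beside 10.2% of probe sets, as did the F test over the 6 natural phases, beside 72.6%.

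At matched phases from mid anagen on, every difference of the induced cycle to the natural one was below 0, though few passed. This holds with D8 and D12 pooled as late anagen. At D12 alone, Krt28 read 18421 and 19236, above the 15487 to 16237 of P29. The Krt72 mean was 17365 at D12 and 16002 at P29. D12 means of Krt25, Krt26, Krt27, Krt71 and Krt73 were below those of P29, and D12 alone was not tested. At D5 4 of 7 genes were lower than at P27, beside 14.5% of probe sets, namely Krt26 12.9-fold, Krt72 11.4-fold, Krt27 3.90-fold and Krt71 2.82-fold, while Krt25 was 1.46-fold lower with a log2 difference of -0.55 ± 0.44 (limma adjusted p = 0.392). Without the first D5 mouse Krt26 was at -1.94, Krt72 at -1.36, Krt27 at -0.64 and Krt71 at -0.52, so these 4 differences depend largely on that mouse. Skeletal muscle markers were higher at D5 in 5 of 8, with sums of 100009 to 165985 against 66036 to 88492, and their part was not tested. D8 and D12 against P29 gave differences from -1.28 ± 0.60 (Krt26) to -0.21 ± 0.32 (Krt28) with 0 of 7 passing (limma, 15.9% of probe sets lower), and before adjustment 1 was under 0.05 in limma and 2 in the t-test of the methods. D17 against P37 and P39 gave -0.37 ± 0.64 to -0.07 ± 0.34 with 0 of 7 passing (limma, 9.82% of probe sets lower), and before adjustment 0 were under 0.05 in limma and 4 in the t-test of the methods.

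The step from early to mid anagen was compared between the cycles by an interaction in the fit of all arrays. It was smaller in the natural cycle for 5 genes, beside 6.20% of probe sets, with differences of the log2 steps of -8.01 (Krt25), -5.57 (Krt28), -5.34 (Krt71), -4.84 (Krt73) and -4.73 (Krt27). With the D3 signals set to the median of their array these are bounds of -6.17, -4.19, -4.64, -4.23 and -3.32 or beyond, and the same 5 passed with that median as the floor. For Krt26 and Krt72 the difference was 0.06 and 0.28 ± 1.08 and did not pass (limma adjusted p = 0.977 and 0.898), and both values are limited by D3 signals below the array median. Tchh, Dlx3, Padi3 and Msx2 behaved as the first 5, with -4.87 ± 0.66, -2.84 ± 0.40, -2.69 ± 0.74 and -1.76 ± 0.38, of which those of Tchh and Padi3 also rest on D3 signals below the array median, and no other partner passed. The step from late anagen to early catagen did not differ between the cycles for any of the 7 at the threshold (limma, 0 of 7 passing, 0 at an unadjusted p under 0.05, 0% of probe sets).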

How the data were processed

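RNA of dorsal skin from 33 mice was hybridized by the authors to 1 array per mouse. Deposited by the authors were signal intensity values on a linear scale, from MAS5 (version not given in the sources used here), scaled to a common mean. Detection calls and saturation flags were not used here. Phases followed the description of the series. The labels of P41, P44 and the depilation days name early anagen instead, but their days are clear. Members were found by the single symbol of their probe set in the platform annotation, and the RefSeq tables (GRCm38.p6) gave gene order and promoters. The keratins and the gene lists were chosen with earlier results of these data known.

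A floor of 34.6, the 25th percentile over the table, replaced lower signals before log2 was taken, and 26988 of 45037 probe sets above the array median on at least 3 arrays were kept. Neighbouring phases were compared in fits of their own arrays, depilation days in a fit of 10 arrays, and the cycles and neighbouring days in a fit of 33 arrays (limma 3.58.1 in R 4.3.3, moderated by eBayes), with p-values adjusted by Benjamini-Hochberg over all kept probe sets and a threshold of 0.05. Counts of keratins under 0.05 before adjustment are given without the share of all probe sets at that level, which was not taken. The scripts were tested on simulated data. Order within arrays was tested by two-sided exact permutation (scipy 1.17.1), with adjustment over 6 genes. A fold change is that of the floored log2 means, except over D3, where the keratins lay below the array median and a bound was taken against that median, a choice made after seeing the data. Motifs were searched on both strands. P34, with 1 mouse, entered no phase test. Genes were named by fixed rules, namely the 7 keratins, partners that passed with the 2 largest rises and falls per comparison first, the 5 most correlated other genes and the 3 nearest measured genes on each side of both clusters. The alternatives were 2 other floors, filters and scalings, sex, a replicate block, the t-test of the methods, other phase groupings and each array left out. That t-test stands in for the ANOVA of the authors. It used the floored log2 signal and the adjustment and threshold given above, not their transformed values and threshold, and also comparisons that they did not make.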

Additional observations from a re-analysis of the deposited data

Results flagged for a closer look

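The step from early to mid anagen differed between the natural and the induced cycle for 5 of the 7 keratins, by an interaction of the limma fit over all 33 arrays. Krt25 had a difference of -8.01, and Krt28, Krt71, Krt73 and Krt27 had -5.57, -5.34, -4.84 and -4.73. All D3 signals of these genes lie below the array median, and with them set to that median the differences are bounds of -6.17, -4.19, -4.64, -4.23 and -3.32. In the natural step these genes started from day means of 4256 to 15308 at P23 and P25, and in the induced step from 34.2 to 81.7 at D3.

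The single P34 mouse stood apart from the P29 mice of late anagen for Krt27, at 30372 against 30938 to 31046, with a gap that made up 0.842 of the range of the 4 mice on the log2 scale. Of 28 such checks 1 gave this result, and chance gives about 1 in 20. The P29 mice were nearly alike for Krt27, with an SD of 58.5, and the P34 value lies within the P37 range of 30343 to 33617.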

How the results depend on the processing

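Most counts kept their size under the alternatives. Into mid anagen 6 keratins passed, but 0 with no filter, 0 with the t-test of the methods and 0 with P25 as the only early anagen day, and 0 to 7 with single mice left out (0 without P27 replicate 1 or 2, 3 without P23 replicate 1). At mid catagen 3 in place of 7 passed in 1 fit of all arrays. For D5 against D3 and D5 against P27 the t-test gave 0. With a D5 mouse left out, 1 is left on that day and no calls are given. The Krt26 difference of D5 to P27 was then -1.94 without D5 replicate 1 and -5.43 without D5 replicate 2. With the median of each array as the floor, an alternative chosen after seeing the data, 3 in place of 7 passed for D3 against P44 and 1 in place of 0 for D12 against D8. For D3 against P23 and P25 the t-test gave 5 in place of 7, and for telogen against mid catagen 6 in place of 7. For D3 against P44 no filter and sex as a covariate gave 4 each, the t-test 0 and single omissions 3 to 7, the lowest without D3 replicate 2. The Krt26 interaction of the early to mid step was -1.91 with the lower floor, -0.77 with an offset of 16, -0.11 with median centring and -1.23 with P25 alone, where Krt72 was at -0.78, and omissions gave -1.68 to 1.81 and -1.87 to 2.43 (lowest without D5 replicate 1, highest without D5 replicate 2). Against Krt71 the onset change was 0.010 for Krt28 and -0.020 for Krt73, so that the first lost its call and the second its direction. The order of loss ran from -2.02 to -1.49 (Krt28), -1.42 to -1.15 (Krt72), -0.999 to -0.65 (Krt73), -0.66 to -0.42 (Krt26) and -0.0015 to 0.051 (Krt71) over single omissions, with exact permutation adjusted p = 0.0536 to 0.107 for the first 4. For those 4 the sets of mice stayed apart in every omission, and each unadjusted exact p was the smallest that 1 mouse fewer allows. These p-values therefore cannot show a dependence on single mice. At 25% of the peak in place of 50%, the first natural day was day 23 for Krt25 and Krt73, day 25 for Krt71 and day 27 for Krt26 and Krt72, beside day 27 for Krt27 and Krt28 at both shares, the last was day 41 for Krt26, Krt72 and Krt73, and the first after depilation was day 5 for Krt27, Krt28, Krt71 and Krt73. The cause of these shifts was not tested. Median centring moved the median of all probe sets by -0.17 to 0.16. The stricter filter left none of the 7, a second probe set did not exist for any, and sex could not be fitted among the all-female depilation mice. Replicate numbers name different mice, with same-numbered deviations correlating at -0.18 to 0.19 over 24 pairs and 6 best with their own number. With the replicate block 7 keratins passed into mid anagen and no other count changed. With 1 to 3 mice a day the arrays limit precision, and so do the floor at D3 and the top of the scale at the peak.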
